A study of Mus musculus with 6 samples.

Results

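The 10 genes described here belong to the Wnt pathway: the ligands Wnt2 and Wnt5a, the secreted inhibitors Sfrp1, Sfrp2, Sfrp4, Sfrp5, Wif1 and Dkk2, the intracellular regulator Dact2 and the pathway target Axin2. The list was drawn up with earlier results of these data known. Its genes were taken by symbol, as the rows of the count tables that carry one of these names, and all 10 were found among the 31053 genes listed. Their transcripts were counted in cells of mouse inguinal white adipose tissue (iWAT) and compared between populations, ages and housing temperatures.

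Wnt ligands are secreted lipid-modified proteins that bind Frizzled receptors on neighbouring cells. In the canonical branch this stabilises beta-catenin, which enters the nucleus and acts with TCF/LEF factors, and Axin2 is a widely used transcriptional target and feedback inhibitor of that branch, while Wnt5a is best known for beta-catenin-independent signalling. Secreted Frizzled-related proteins and Wif1 bind Wnt ligands outside the cell, Dkk proteins bind the LRP co-receptors, and Dact proteins bind Dishevelled inside the cell. In adipose tissue, canonical Wnt signalling is known for restraining the differentiation of preadipocytes.

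Single-cell RNA sequencing was performed on stromal vascular cells of iWAT from male C57BL/6 mice without a transgene, after removal of CD45+ immune cells by sorting. Young (9 weeks) and aged (57 weeks) mice all had 3 weeks at 30 °C before they either remained there (TN) or spent their last 3 days (3D cold) or 14 days (14D cold) at 6 °C. There were 6 libraries, 1 for each age and temperature. The mice came from an aging colony or a commercial breeder (C57BL/6JN or C57BL/6J), and the substrain behind each library is not given in the sources used here. The study's methods describe pooling of mice as an exception to be stated and state none for these libraries, without giving a number of mice. No spread between replicate libraries of a group could therefore be measured. A p-value from the fits used here rests on what remains between libraries after the terms of the fit, moderated over all genes. That remainder may be technical or an age difference that varies with temperature. No difference between ages within 1 temperature could be tested.

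The libraries held 52068837 to 88508349 UMIs (unique molecular identifiers, a tag that lets each captured transcript be counted 1 time). After filtering, 57326 cells were kept, with a median of 2742 UMIs per cell in aged 14D cold and 6726 to 9904 in the other 5 libraries. Any pair of libraries shared 18 to 35 cell barcodes. Cells were clustered without the 10 genes, the other Wnt genes listed and the marker genes, and clusters were named from markers, which gave 22732 Dpp4+ fibroblast-like, 18188 Icam1+ preadipocyte-like and 4519 Cd142+ fibroblast-like cells, together the adipocyte stem and progenitor cells (ASPCs). There were also 4035 endothelial-like, 1396 smooth muscle or pericyte-like, 395 Schwann-like and 419 immune-like cells. The names, used from here on without "-like" for the ASPCs, were rebuilt from markers and may not hold the same cells as the populations of the study. In aged 14D cold 36.0% of cells fell in clusters without a name, against 3.42% to 4.24% elsewhere.

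Sfrp2 and Dkk2 were lower in aged cells of all 3 ASPC populations. Dact2 was called higher in aged Dpp4+ fibroblasts, a call that several alternative settings described below did not keep. Promoters are shown for these genes and for the target Axin2. Each runs from 250 bases before to 50 bases after the annotated start, read 5′ to 3′ on the gene's strand from RefSeq for GRCm38.p6, in which 7 of the 10 genes had an entry. Capitals mark the letters of a TCF/LEF core (CTTTGA or CTTTGT) or a TATA box (TATAAA), each searched on both strands. The windows lie at chr3:83766071-83766370 (+) for Sfrp2, chr3:132085042-132085341 (+) for Dkk2, chr17:14203782-14204081 (-) for Dact2 and chr11:108920099-108920398 (+) for Axin2.
Sfrp2: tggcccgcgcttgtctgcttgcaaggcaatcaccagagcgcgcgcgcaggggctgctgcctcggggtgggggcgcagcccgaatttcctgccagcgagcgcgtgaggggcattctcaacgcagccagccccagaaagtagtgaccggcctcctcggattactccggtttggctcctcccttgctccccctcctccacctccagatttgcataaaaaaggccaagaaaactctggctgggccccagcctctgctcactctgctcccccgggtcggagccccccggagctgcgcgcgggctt
Dkk2: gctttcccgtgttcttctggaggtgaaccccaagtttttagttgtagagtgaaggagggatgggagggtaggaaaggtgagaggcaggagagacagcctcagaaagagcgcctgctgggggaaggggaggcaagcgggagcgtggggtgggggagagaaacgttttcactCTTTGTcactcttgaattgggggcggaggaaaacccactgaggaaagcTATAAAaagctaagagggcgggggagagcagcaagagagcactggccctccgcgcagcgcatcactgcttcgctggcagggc
Dact2: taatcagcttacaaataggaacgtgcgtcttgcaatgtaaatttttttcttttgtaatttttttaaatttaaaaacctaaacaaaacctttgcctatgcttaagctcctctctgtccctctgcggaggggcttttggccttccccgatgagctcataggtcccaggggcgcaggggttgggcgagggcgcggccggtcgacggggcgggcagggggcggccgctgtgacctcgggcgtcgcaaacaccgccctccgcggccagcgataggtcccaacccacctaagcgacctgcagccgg
Axin2: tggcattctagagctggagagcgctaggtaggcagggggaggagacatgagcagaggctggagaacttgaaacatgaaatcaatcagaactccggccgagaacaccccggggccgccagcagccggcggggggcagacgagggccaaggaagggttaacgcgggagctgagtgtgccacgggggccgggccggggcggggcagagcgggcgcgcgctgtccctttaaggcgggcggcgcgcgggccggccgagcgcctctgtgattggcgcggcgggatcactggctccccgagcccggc
The Dkk2 window held 1 match to the TCF/LEF letters and 1 to the TATA box, and the other 3 windows held no match to either. Of 32851 mouse promoters of this length, 31.2% held the TCF/LEF letters and 13.6% the TATA box letters, so that a match in 1 of 4 windows is a description of the sequence and not of binding.

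All 10 are protein-coding genes. In the GENCODE vM21 annotation of GRCm38, Wnt2 lies at chr6:17988940-18030585 (-) and Wnt5a at chr14:28504750-28527448 (+). The inhibitor genes are Sfrp1 at chr8:23411502-23449632 (+), Sfrp2 at chr3:83766321-83774316 (+), Sfrp4 at chr13:19623104-19632994 (+), Sfrp5 at chr19:42197971-42202252 (-), Wif1 at chr10:121033960-121100650 (+) and Dkk2 at chr3:132085292-132180304 (+). Dact2 lies at chr17:14195052-14204304 (-) and Axin2 at chr11:108920349-108950783 (+).

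The genes divided the stromal cells by where they were detected. Of all UMIs of Dact2 in the cells kept, 89.4% came from Dpp4+ fibroblasts, as did 86.1% of those of Wnt2, 78.5% of Sfrp4, 73.1% of Sfrp2 and 71.4% of Axin2. Wnt5a, Sfrp1 and Dkk2 were spread over all 3 ASPC populations, with 53.6%, 55.2% and 42.7% of their UMIs in Dpp4+ fibroblasts, and Dkk2 had another 37.0% in Icam1+ preadipocytes. Such shares also follow the size of a population. Dpp4+ fibroblasts were 22732 and Icam1+ preadipocytes 18188 of the 57326 cells kept, and levels relative to all UMIs are given below. Sfrp5 was a Schwann-like transcript, with 730 of its 830 UMIs (88.0%) in those 395 cells. Wif1 was barely detected at all.

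Levels are given as CPM, the UMIs of a gene in every 1000000 UMIs of all genes, after summing the cells of a population in a library. Such a sum cannot tell fewer expressing cells from less RNA in each. Over the 6 libraries, Wnt2 ranged from 78.9 to 102 CPM in Dpp4+ fibroblasts, from 8.86 to 21.7 in Cd142+ fibroblasts and from 2.98 to 6.57 in Icam1+ preadipocytes. No library's Wnt2 level in one of these populations reached the range of another. Smooth muscle or pericyte-like cells had 10.1 to 29.5 Wnt2 CPM, which overlapped the Cd142+ range.

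Sfrp2 and Sfrp4 split the populations differently from Wnt2. Sfrp2 was at 669.8 ± 265 CPM (mean ± SD, n = 6 libraries) in Cd142+ fibroblasts, 565 ± 239 in Dpp4+ fibroblasts and 57.8 ± 23.2 in Icam1+ preadipocytes. Sfrp4 was at 152 ± 27.0, 159 ± 33.5 and 4.16 ± 2.61 in the same order. For both genes the Cd142+ and Dpp4+ levels differed by less than their spread over libraries, and every Icam1+ library lay below every library of the other 2 populations.

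Sfrp1 had its highest ASPC level in Cd142+ fibroblasts, at 135 ± 32.9 CPM (n = 6), followed by 87.6 ± 15.3 in Dpp4+ fibroblasts and 35.4 ± 13.2 in Icam1+ preadipocytes. The Cd142+ and Dpp4+ ranges of Sfrp1, 89.5 to 179 and 73.5 to 109, overlapped. Wnt5a was the most even ligand, at 73.6 ± 22.0 in Dpp4+, 68.8 ± 17.9 in Cd142+ and 48.4 ± 16.3 in Icam1+ cells, with overlapping ranges in all 3. Within each library, though, Icam1+ cells had the lowest Wnt5a level of the 3 populations. Dkk2 was at 68.7 ± 35.3 in Cd142+, 40.0 ± 16.8 in Icam1+ and 39.8 ± 15.8 in Dpp4+ cells, and these ranges overlapped as well. Within each library the Dkk2 level was highest in Cd142+ cells.

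**Figure D1:**
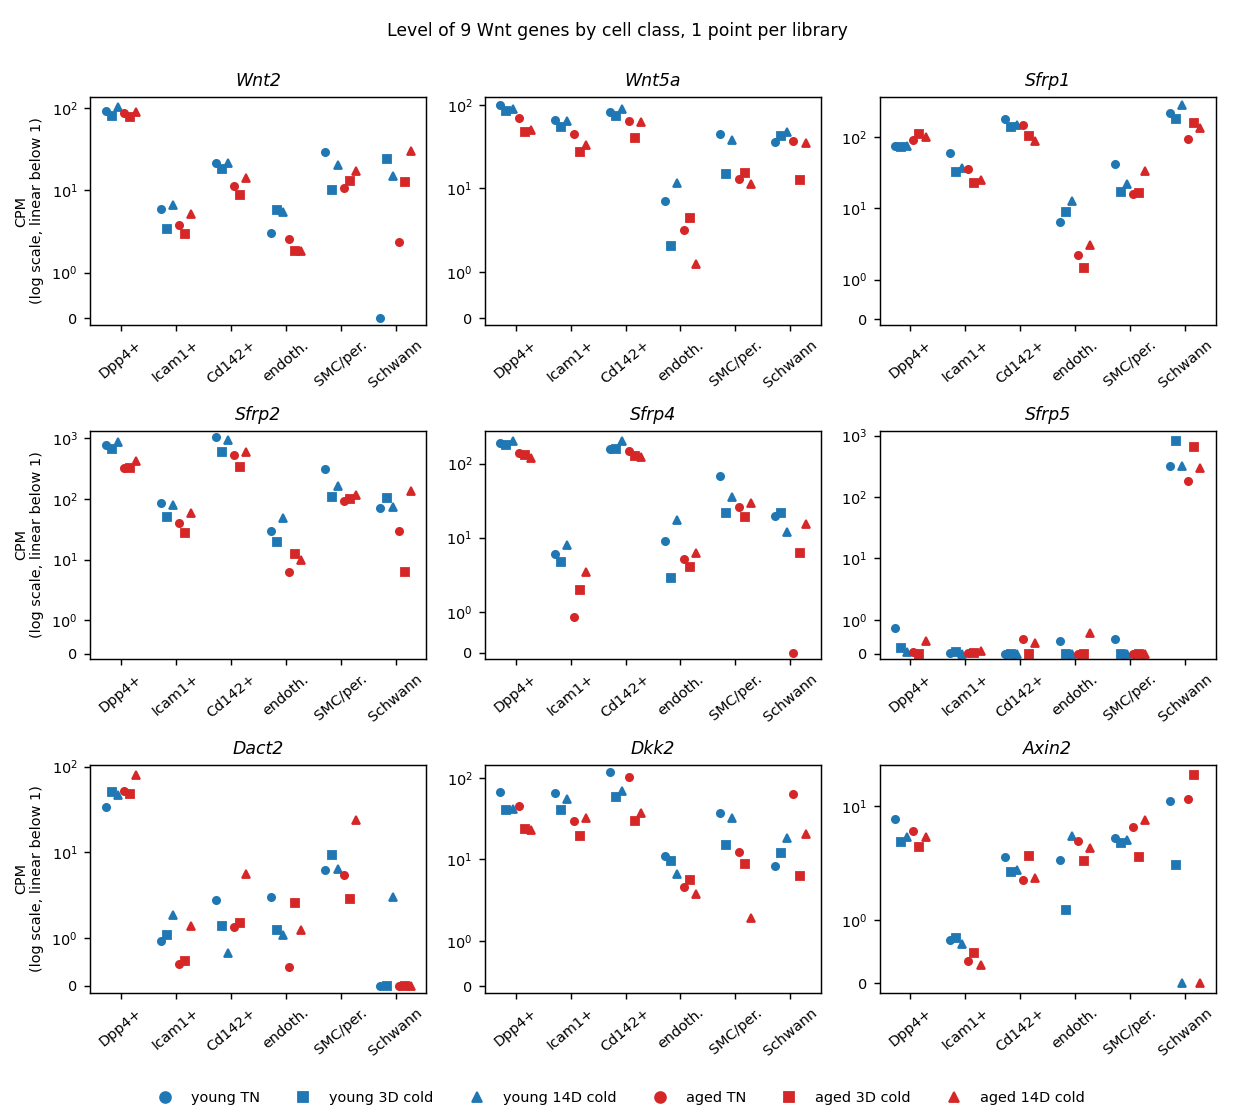
Level of the Wnt genes in each cell class, in CPM on a log axis that is linear below 1, with 1 point per library (blue young, red aged). Wnt2 and Dact2 stood highest in Dpp4+ fibroblasts (78.9 to 102 and 33.5 to 79.5 CPM), Sfrp5 in Schwann-like cells (181 to 805).

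Free RNA in droplets gives some UMIs of any abundant transcript to every cell, so endothelial-like cells were used as a level for comparison. Their mean was 3.08% of the highest ASPC mean for Dact2, 3.14% for Sfrp2, 3.84% for Wnt2, 4.31% for Sfrp1, 4.67% for Sfrp4, 6.74% for Wnt5a and 9.88% for Dkk2. The Wnt2 and Sfrp4 levels in Icam1+ preadipocytes, with means of 4.63 and 4.16 CPM, were close to the endothelial-like means of 3.42 and 7.42, and Dact2 there (1.04) was below its endothelial-like mean of 1.59. For Axin2 the endothelial-like mean of 3.79 was 67.3% of the highest ASPC mean of 5.63.

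Sfrp5, a secreted inhibitor, was found in Schwann-like cells at 321, 805 and 324 CPM in the young TN, 3D cold and 14D cold libraries and at 181, 651 and 298 in the aged libraries in the same order. The highest level in each age was in 3D cold, and the ages overlapped. With each cell thinned to 2000 UMIs, 22.4%, 29.2% and 15.6% of young and 13.2%, 22.0% and 15.6% of aged Schwann-like cells had an Sfrp5 UMI. These shares rest on 41 to 91 cells per library, and their exact 95% binomial intervals ran from 6.49% to 41.8% at the extremes. Elsewhere Sfrp5 did not exceed 0.773 CPM in any Dpp4+, Icam1+ or Cd142+ sum.

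The same Schwann-like cells carried Sfrp1 at 216, 182 and 282 CPM in young TN, 3D cold and 14D cold and at 95.3, 156 and 136 in the aged libraries. All 3 young libraries were above all 3 aged libraries, from 25 to 94 Sfrp1 UMIs each, and Schwann-like cells were not tested. Wif1, another secreted Wnt-binding inhibitor, had 2 UMIs in 57326 cells, both in aged TN Schwann-like cells. In Dpp4+ fibroblasts a count of 0 for Wif1 allows up to 0.0780 to 0.175 CPM, depending on the library, where 3 counts set the limit and the limit covers counting error only.

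Most of the genes detected in ASPCs differed between ages, and most of these were lower in aged mice. Age was tested on the sums of a population, 3 aged and 3 young, with edgeR's quasi-likelihood test and a temperature term, and p-values were Benjamini-Hochberg adjusted over all genes tested. In Dpp4+ fibroblasts 4 of the 10 genes fell with age (Sfrp2, Wnt5a, Dkk2, Sfrp4), 2 rose (Sfrp1, Dact2), 3 did not pass the threshold of 0.05 and Wif1 was not tested. Among all 13410 genes tested there, 17.6% passed, 8.78% falling and 8.84% rising. The median log2 fold change was -0.57 over the 9 Wnt genes tested and 0.00 over all genes. Because the genes were chosen with earlier results of these data known, these counts and medians beside all genes are descriptions, in each population.

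In Icam1+ preadipocytes 5 of the 10 genes fell (Sfrp1, Sfrp2, Sfrp4, Wnt5a, Dkk2), none rose and 3 did not pass, against 14.4% of 13292 genes passing in all, 6.58% falling and 7.77% rising. Cd142+ fibroblasts had 6 of the 10 genes falling (Wnt2, Wnt5a, Sfrp1, Sfrp2, Sfrp4, Dkk2), none rising and 2 not passing, where 12.5% of 11325 genes passed, 6.11% falling and 6.37% rising. Sfrp5 and Wif1 were too low for the test in both populations. The median log2 fold change of the 8 genes tested was -0.81 in Icam1+ and -0.51 in Cd142+ cells, and it was 0.00 over all genes in both.

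**Figure D2:**
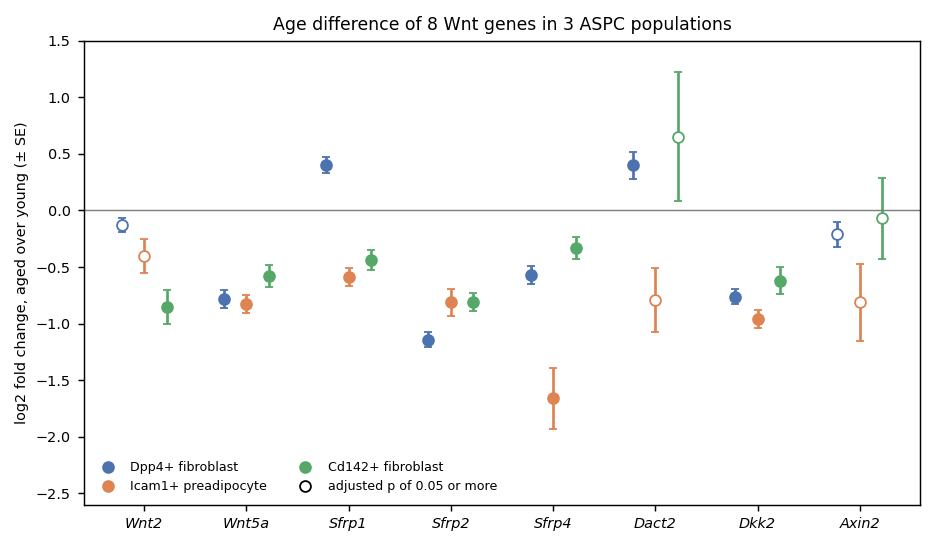
Log2 fold change of each Wnt gene, aged over young, in the 3 ASPC populations, with error bars of 1 SE and filled points for adjusted p under 0.05. Wnt5a, Sfrp2, Sfrp4 and Dkk2 lay below 0 in all 3 populations, and Sfrp1 was above 0 in Dpp4+ fibroblasts (0.40) and below 0 in the other populations (-0.59 and -0.44).

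Sfrp2 encodes a secreted Frizzled-related protein. In Dpp4+ fibroblasts it was at 788, 657 and 869.9 CPM in young TN, 3D cold and 14D cold and at 319, 329 and 428 in the aged libraries in the same order. Every aged library was below every young library. The fall was 2.20-fold (log2 fold change -1.14 ± 0.07 SE, adjusted p = 1.39e-05), the furthest below 0 of the genes that passed in this population.

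In Cd142+ fibroblasts, Sfrp2 stood at 1035, 597 and 937 CPM in the young and 533, 331 and 587 in the aged libraries. The ages did not overlap, although young 3D cold (597) lay only just above aged 14D cold (587), and the fall was 1.75-fold (-0.81 ± 0.08, adjusted p = 9.76e-06). Icam1+ preadipocytes had 87.4, 51.1 and 81.1 young and 39.9, 27.8 and 59.3 aged Sfrp2 CPM, so that aged 14D cold exceeded young 3D cold. At each temperature the aged library was the lower one, and the log2 fold change was -0.81 ± 0.12 (adjusted p = 0.00232). With cells assigned 1 by 1 from their markers in place of clusters, the Icam1+ value was -0.67 and no longer passed (adjusted p = 0.063).

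Wnt5a, the ligand best known for beta-catenin-independent signalling, fell in all 3 populations. Dpp4+ fibroblasts had 100.4, 84.4 and 90.6 Wnt5a CPM in young TN, 3D cold and 14D cold and 69.4, 47.2 and 49.5 in the aged libraries. Icam1+ preadipocytes had 66.3, 54.3 and 65.0 in young and 44.5, 27.2 and 33.3 in aged libraries, and Cd142+ fibroblasts 82.4, 74.4 and 90.2 in young and 63.9, 39.7 and 61.9 in aged libraries. In each population every aged library was below every young library. The falls were 1.72-fold (-0.78 ± 0.08, adjusted p = 0.000134), 1.78-fold (-0.83 ± 0.08, adjusted p = 0.000359) and 1.49-fold (-0.58 ± 0.10, adjusted p = 0.00114).

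Wnt2, a ligand of the canonical branch, was at 93.3, 80.8 and 102 CPM in young and 87.9, 78.9 and 91.0 in aged Dpp4+ fibroblasts. The ages overlapped, and the difference did not pass (log2 fold change -0.13 ± 0.06, adjusted p = 0.178). In Cd142+ fibroblasts Wnt2 was at 21.5, 18.3 and 21.7 in young and 11.4, 8.86 and 14.0 in aged libraries. Here the ages did not overlap, and Wnt2 fell 1.80-fold (-0.85 ± 0.15, adjusted p = 0.00117). The value shrank to -0.42 (adjusted p = 0.448) when only cells with at least 2000 UMIs were used, each thinned to 2000, and DESeq2 gave -0.85 with an adjusted p of 0.0845. In Icam1+ preadipocytes Wnt2, at 2.98 to 6.57, had a log2 fold change of -0.40 ± 0.15 that did not pass (adjusted p = 0.110).

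Sfrp1, a secreted Frizzled-related inhibitor, rose in Dpp4+ fibroblasts and fell in the other ASPC populations. Its level in Dpp4+ fibroblasts was 74.5, 73.5 and 75.2 CPM in young mice, while aged mice had 92.4, 109 and 101. Every aged library was higher, a rise of 1.32-fold (0.40 ± 0.07, adjusted p = 0.00285). In Icam1+ preadipocytes Sfrp1 was at 59.6, 32.0 and 37.1 in young and 35.8, 22.7 and 25.0 in aged libraries, a fall of 1.51-fold (-0.59 ± 0.08, adjusted p = 0.00132). The ages overlapped over all temperatures, with aged TN (35.8) above young 3D cold (32.0), while each aged library was below the young library of its own temperature.

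Cd142+ fibroblasts had 179, 139 and 149.5 Sfrp1 CPM in young and 149, 105 and 89.5 in aged libraries. Aged TN was above young 3D cold, and the fall was 1.36-fold (-0.44 ± 0.09, adjusted p = 0.00573). Without the young 14D cold library the value was -0.31 (adjusted p = 0.0712), and without aged 14D cold -0.32 (adjusted p = 0.0811). Leaving out either one removes the same pair of ages from the fit, so these are not separate checks. The call needed the 14D cold pair.

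The difference of the age effect on Sfrp1 between populations was tested itself, as an interaction of age and population with library as a block. In Cd142+ relative to Dpp4+ fibroblasts the Sfrp1 age effect was lower by -0.84 ± 0.15 on the log2 scale (adjusted p = 0.00525). For Icam1+ preadipocytes against Dpp4+ fibroblasts the Sfrp1 difference was -0.97 ± 0.24, which did not pass (adjusted p = 0.0716). It passed without the aged TN library, at -1.23. Wnt2 also differed between Cd142+ and Dpp4+ fibroblasts, by -0.74 ± 0.14 (adjusted p = 0.00536), but without aged 3D cold this was -0.64 (adjusted p = 0.0584).

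Of the 10 genes, Sfrp1 and Wnt2 passed for Cd142+ against Dpp4+ cells (2.06% of all genes did), Sfrp4 passed for Cd142+ against Icam1+ cells (2.09%), and none passed for Icam1+ against Dpp4+ cells (2.46%). In that last comparison edgeR gave 3 of the genes, Sfrp1, Sfrp4 and Dact2, an unadjusted p under 0.05, beside 2144 of all 13915 tested. At that level Cd142+ minus Dpp4+ had 4 of the genes, beside 1566 of 12802, and Cd142+ minus Icam1+ had 3, beside 1662 of 12522. No other tool was run. Wnt5a had age effects that differed between populations by -0.04 ± 0.07 (Icam1+ minus Dpp4+), 0.17 ± 0.12 (Cd142+ minus Dpp4+) and 0.24 ± 0.11 (Cd142+ minus Icam1+), none of which passed (adjusted p = 0.840, 0.619 and 0.346).

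Sfrp4, a further secreted Frizzled-related inhibitor, was at 188, 179 and 199.7 CPM in young and 141, 132 and 118 in aged Dpp4+ fibroblasts. No aged library reached a young one, and the fall was 1.48-fold (-0.57 ± 0.08, adjusted p = 0.00141). In Cd142+ fibroblasts it was at 158, 157 and 199 in young and 148, 128 and 123 in aged libraries, without overlap, a fall of 1.26-fold (-0.33 ± 0.10, adjusted p = 0.0435). This small difference was lost without young 14D cold (-0.16, adjusted p = 0.404), without aged 14D cold (-0.17, adjusted p = 0.385) and without aged 3D cold (-0.38, adjusted p = 0.095). It passed in 7 of 14 alternatives and was also lost with DESeq2 (adjusted p = 0.244), with doublets removed (adjusted p = 0.0930), with cells thinned to 2000 UMIs (adjusted p = 0.0616) and without the temperature term.

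Icam1+ preadipocytes, where Sfrp4 was low, had 6.00, 4.72 and 7.95 CPM in young and 0.878, 1.98 and 3.43 in aged libraries. The ages did not overlap, and the fall was 3.16-fold (-1.66 ± 0.27, adjusted p = 0.00451). These levels rest on 659 Sfrp4 UMIs and stand near the endothelial-like level, and the value dropped to -1.11 with doublets removed (adjusted p = 0.0765) and -1.15 with cells assigned 1 by 1 (adjusted p = 0.145). The Dpp4+ markers moved with it. All 10 were detected in Icam1+ preadipocytes, and their sum of 787 to 1352 CPM in young and 590.2 to 928 in aged libraries was lower in the aged library at each temperature. Of the 10, 4 were lower in every aged library and none was higher in every one. Their part in the Sfrp4 difference was not tested.

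Dkk2, a secreted protein that acts on LRP co-receptors, was at 66.0, 40.1 and 41.5 CPM in young and 44.4, 23.7 and 22.9 in aged Dpp4+ fibroblasts. Aged TN exceeded young 3D and 14D cold, and each aged library was below the young library of its temperature, a fall of 1.69-fold (-0.76 ± 0.07, adjusted p = 0.000145). In Icam1+ preadipocytes Dkk2 was at 65.1, 39.8 and 54.1 in young and 29.8, 19.5 and 31.8 in aged libraries. These did not overlap, and the fall was 1.95-fold (-0.96 ± 0.08, adjusted p = 0.000169). In Cd142+ fibroblasts it was at 118, 57.3 and 69.0 in young and 102, 29.5 and 36.6 in aged libraries, with aged TN above both young cold libraries, a fall of 1.54-fold (-0.62 ± 0.12, adjusted p = 0.00356). None of the 3 Dkk2 age differences passed in a fit without a temperature term (adjusted p = 0.171, 0.0612 and 0.528), and the cause was not tested.

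Dact2, a Dishevelled-binding inhibitor inside the cell, was at 33.5, 50.1 and 47.1 CPM in young and 51.2, 48.5 and 79.5 in aged Dpp4+ fibroblasts. The ages overlapped, and at 3D cold the aged library was the lower one. The rise of 1.32-fold (0.40 ± 0.12, adjusted p = 0.0437) barely passed. It was lost without young TN (0.32, adjusted p = 0.171), aged TN (0.32, adjusted p = 0.187), young 14D cold (0.26, adjusted p = 0.248) or aged 14D cold (0.26, adjusted p = 0.276), and it was 0.63 without young 3D cold (adjusted p = 0.000115) and without aged 3D cold (adjusted p = 0.000122). DESeq2 gave 0.41 with an adjusted p of 0.313. Dact2 was at 0.457 to 1.85 in Icam1+ and 0.690 to 5.65 in Cd142+ cells and did not pass in either (adjusted p = 0.0965 and 0.529).

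Axin2, the feedback target of canonical signalling, was at 7.78, 4.89 and 5.33 CPM in young and 6.06, 4.39 and 5.35 in aged Dpp4+ fibroblasts. The ages overlapped and the difference did not pass (-0.21 ± 0.11, adjusted p = 0.260). In Cd142+ fibroblasts it was at 2.23 to 3.69 with a log2 fold change of -0.07 ± 0.36 (adjusted p = 0.927). In Icam1+ preadipocytes Axin2 was at 0.691, 0.723 and 0.617 in young and 0.351, 0.485 and 0.292 in aged libraries, without overlap, from 4 to 23 UMIs per library, and the difference did not pass (-0.81 ± 0.34, adjusted p = 0.154).

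Sfrp5 was tested in Dpp4+ fibroblasts, where it had 46 UMIs in all, 29 of them in young TN. Those 29 UMIs lay in 3 of 3801 cells. The Dpp4+ mean of 0.239 CPM was near the endothelial-like mean of 0.166. The Sfrp5 log2 fold change of -1.04 ± 1.00 did not pass (adjusted p = 0.533). This value turned to 0.48 without either TN library (adjusted p = 0.855 and 0.851), was -0.60 without either 3D cold library, and passed at -3.96 or -3.98 when the young or the aged 14D cold library was left out.

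The share of cells with a UMI gave a second view of the same counts in Dpp4+ fibroblasts. With each cell thinned to 2000 UMIs, which left out 475 aged 14D cold and 24 aged TN Dpp4+ cells, 58.6% ± 4.03 (SD, n = 3 libraries) of young and 36.0% ± 6.35 of aged cells had an Sfrp2 UMI. For Sfrp4 the shares were 26.8% ± 0.624 and 18.8% ± 1.45, for Wnt5a 15.8% ± 1.25 and 10.5% ± 2.04, and for Dkk2 7.66% ± 1.84 and 4.77% ± 1.15. Sfrp1 was found in 12.2% ± 0.115 of young and 16.6% ± 1.78 of aged cells and Dact2 in 7.89% ± 1.18 and 10.3% ± 1.71.

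For each of these 6 genes the aged and young shares did not overlap, with p = 0.1 in a two-sided exact permutation test, the smallest value 3 libraries against 3 allow, and 0.300 adjusted over 30 tests. How many of all genes separate in this way was not counted. Wnt2 shares of 15.9% ± 1.34 and 14.9% ± 1.16 overlapped (exact p = 0.400). Endothelial-like cells, with a median of 3415 UMIs against 7553 in Dpp4+ fibroblasts, had an Sfrp2 UMI in 0.779% to 4.74% and a Wnt2 UMI in 0.157% to 0.508% at the same 2000 UMIs. Without thinning, 84.0% ± 2.71 of young and 56.9% ± 4.47 of aged Dpp4+ fibroblasts had an Sfrp2 UMI. Unthinned shares overlapped for Sfrp1 (33.9% to 38.5% young, 34.4% to 43.0% aged) and Dact2 (22.2% to 25.1% and 22.7% to 28.0%). In both Icam1+ and Cd142+ cells the thinned shares of Wnt5a did not overlap, while those of Sfrp2 and Dkk2 did.

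Other RNA moved with age in the same cells. In Dpp4+ fibroblasts the 10 Dpp4+ markers summed to 14977 to 15656 CPM in young and 11988 to 13489.6 in aged libraries, without overlap, although 1 of the 10 was higher and 2 were lower in every aged library. The 8 epithelial markers, all detected, summed to 3.89 to 8.45 in young and 14.1 to 26.4 in aged libraries, and the 10 endothelial markers, all detected, to 50.6 to 52.6 and 53.6 to 76.9. Of these, 1 epithelial and 4 endothelial markers were higher in every aged library, and none was lower in every one. The 6 lymphatic endothelial markers summed to 2.15 to 3.04 and 3.14 to 7.63, with 1 of them higher and 1 lower in every aged library. In Icam1+ preadipocytes the 10 Icam1+ markers summed to 12418 to 13107 in young and 13119 to 14242 in aged libraries, and the 10 Cd142+ markers to 1170.3 to 1406 and 1519.7 to 1989.7. There 2 Icam1+ markers were higher and 2 lower in every aged library, and 3 Cd142+ markers were higher and none lower. In Cd142+ fibroblasts the 10 Icam1+ markers summed to 5036 to 5181 in young and 3420.2 to 4186 in aged libraries, with 2 of them higher and 5 lower in every aged library. Macrophage RNA (7 genes, 5.51 to 14.8 and 11.4 to 14.4), red blood cell RNA (5 genes, 3.69 to 57.5 and 9.81 to 222) and dissociation genes (10 genes, 16911 to 20211 and 15834 to 21512) overlapped between ages in Dpp4+ fibroblasts. Sums of smooth muscle or pericyte, Schwann, immune and adipocyte markers overlapped between ages in all 3 ASPC populations. In Dpp4+, Icam1+ and Cd142+ cells in turn, 3, 4 and 0 of 10 adipocyte markers were higher in every aged library, none lower. For Schwann markers 4, 3 and 4 were higher and 1, 0 and 0 lower. For smooth muscle or pericyte markers 0, 2 and 0 were higher and 2 lower in each population. Of the immune markers 1 was higher, in Icam1+ cells, and none lower. The part of these RNAs in the age differences of the Wnt genes was not tested.

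Dpp4+ fibroblasts were made up of 4 clusters, and the Wnt genes differed between them. Cluster 1 (12951 cells, led by Smpd3, Cxcl13 and Il1r2) had 69.3 Wnt2, 22.1 Dact2 and 763 Sfrp2 CPM over all libraries. Cluster 2 (8742 cells, led by Dmkn, Sbsn and Krtdap) had 119 Wnt2, 87.9 Dact2 and 400.3 Sfrp2. Cluster 8 (859 cells, with Adam33 and Akr1c18 among its leading genes) had 119.7 Wnt2, 104 Dact2 and 536 Sfrp2. Wnt2 and Dact2 were lower in cluster 1 than in clusters 2 and 8 in each library. Sfrp2 was higher in cluster 1 than in cluster 2 in each library, and higher than in cluster 8 except in aged 3D cold (357 in cluster 1 and 377 in cluster 8). The aged Sfrp2 means of clusters 1 and 8, 397 ± 68.2 and 358 ± 99.7 (SD, n = 3), differed by less than their spread. These are descriptions with no test.

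Because the share of a library's cells in cluster 1 was 7.27% in aged TN and 21.3% to 31% elsewhere, the age effect was also fitted within clusters. Sfrp1 rose in cluster 1, from 87.3 ± 1.30 to 118 ± 4.31 CPM (SD, n = 3; 0.41 ± 0.07, adjusted p = 0.00260), and in cluster 2, from 54.0 ± 5.01 to 82.4 ± 12.9 (0.59 ± 0.07, adjusted p = 0.000120). Sfrp2 fell in cluster 1 from 935 ± 128 to 397 ± 68.2 (-1.27 ± 0.08, adjusted p = 1.83e-06), in cluster 2 from 482 ± 28.1 to 299 ± 7.52 (-0.71 ± 0.07, adjusted p = 8.29e-06) and in cluster 8 by a log2 fold change of -0.77 ± 0.18 (adjusted p = 0.0157). Cluster 8 had only 55 aged TN and 62 aged 14D cold cells. There 73 of all 8085 genes tested passed, against 1871 of 12697 in cluster 1 and 1282 of 12077 in cluster 2.

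Wnt2 fell in cluster 1, from 72.7 ± 11.6 to 58.8 ± 9.70 CPM (-0.32 ± 0.08, adjusted p = 0.0212), and did not pass in cluster 2 (-0.11 ± 0.07, adjusted p = 0.420) or cluster 8 (0.13 ± 0.21, adjusted p = 0.910). Dact2 passed in none of the 3 clusters, with log2 fold changes of 0.42 ± 0.17 (adjusted p = 0.129) in cluster 1, 0.24 ± 0.12 (adjusted p = 0.25) in cluster 2 and -0.21 ± 0.23 (adjusted p = 0.862) in cluster 8. Sfrp4, Wnt5a and Dkk2 fell within both large clusters.

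**Figure D3:**
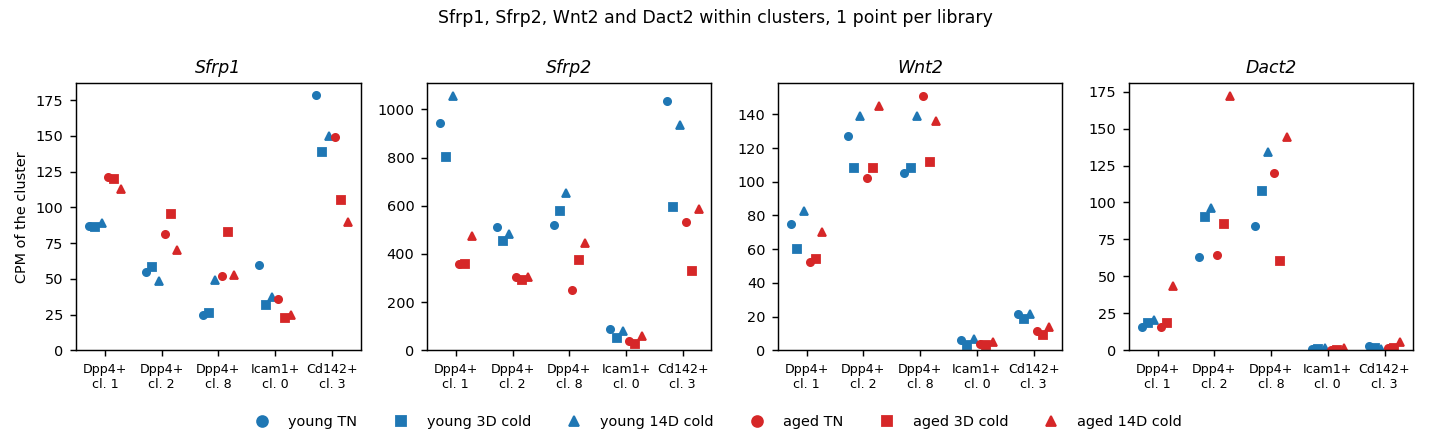
Level of Sfrp1, Sfrp2, Wnt2 and Dact2 in 3 clusters of Dpp4+ fibroblasts and in the Icam1+ and Cd142+ clusters, in CPM of the cluster, with 1 point per library (blue young, red aged). Aged Sfrp2 lay below young Sfrp2 and aged Sfrp1 above young Sfrp1 in clusters 1 and 2, and Dact2 overlapped between ages in each cluster.

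In endothelial-like cells the Wnt genes were low. Sfrp2 was at 29.3, 19.2 and 49.4 CPM in young and 6.19, 12.2 and 9.88 in aged libraries, and Sfrp1 at 6.39, 8.98 and 12.8 and at 2.20, 1.48 and 3.09. The aged libraries were lower in both cases, and both genes passed (-1.70 ± 0.29, adjusted p = 0.0193, and -1.91 ± 0.35, adjusted p = 0.0242), 2 of the 10 genes against 2.71% of all genes tested. These levels were 3.14% and 4.31% of the highest ASPC means, and Sfrp1 rested on 4 to 35 UMIs per library. With cells assigned 1 by 1 Sfrp1 was at -0.21 (adjusted p = 0.888) and Sfrp2 at -1.30 (adjusted p = 0.404), and with doublets removed Sfrp2 was at -0.70 (adjusted p = 0.483). DESeq2 gave Sfrp1 -1.97 (adjusted p = 0.216), and clusters at a resolution of 1.0 gave it -1.36 (adjusted p = 0.0561). Sfrp2 was also lost without young TN (-1.40, adjusted p = 0.112) and aged TN (-1.39, adjusted p = 0.096), and Sfrp1 without young TN (-2.23), young 3D cold (-1.70), young 14D cold (-1.88) or aged 3D cold (-1.69), at adjusted p of 0.0551 to 0.0862. Markers of other cells moved with age in the same endothelial-like cells. The 6 lymphatic endothelial markers, all detected, summed to 267 to 360.2 CPM in young and 81.1 to 187 in aged libraries, and the 10 smooth muscle or pericyte markers, all detected, to 375 to 509 and 222 to 336. Of these, 2 lymphatic and 3 smooth muscle or pericyte markers were lower in every aged library, and none was higher in every one. The 10 Dpp4+ markers overlapped in their sum (3849 to 4756 and 3793 to 4044), although 4 of them were lower in every aged library. Their part in the Sfrp1 and Sfrp2 differences was not tested.

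In smooth muscle or pericyte-like cells none of the 10 genes passed (0.738% of all genes did), and DESeq2 called 0. Unadjusted, edgeR gave Wnt5a, Sfrp2, Sfrp4 and Dkk2 a p under 0.05, as it gave 1250 of all 10161 genes tested. Dkk2 was at 36.6, 14.8 and 32.4 CPM in young and 12.4, 8.67 and 1.90 in aged libraries, without overlap (-1.73 ± 0.37, adjusted p = 0.0812). The aged 14D cold level rested on 2 UMIs, below the 2.85 CPM that 3 counts would give, and aged 3D cold on 12 UMIs. Dkk2 passed without either TN or either 3D cold library, with values of -1.93 to -2.08. Its value shrank as far as -1.29 with a 14D cold library left out. Without the young or aged 3D cold library, Wnt5a (-1.77 and -1.78) and Sfrp2 (-1.15 and -1.16) passed as well.

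Temperature was tested in the 3 ASPC populations. Both cold groups were compared with TN in 1 test with age as a term, so that each temperature rested on 1 young and 1 aged library. In Dpp4+ fibroblasts 2 of the 10 genes passed (Dkk2 and Sfrp2) against 5.80% of all genes tested, in Icam1+ preadipocytes 3 (Dkk2, Sfrp1 and Sfrp2) against 6.09%, and in Cd142+ fibroblasts the same 3 genes against 3.11%. None of the 10 passed in any population in a fit without an age term.

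Dkk2 was lower in the cold in all 3 populations. The log2 fold changes over TN were -0.83 at 3D and -0.78 at 14D in Dpp4+ fibroblasts (adjusted p = 0.00214), -1.39 and -1.07 in Cd142+ fibroblasts (adjusted p = 0.000102) and -0.64 and -0.09 in Icam1+ preadipocytes (adjusted p = 0.0142). In Dpp4+ and Cd142+ fibroblasts each cold library lay below the TN library of its age. In aged Icam1+ preadipocytes the 14D cold level of Dkk2 (31.8 CPM) was above TN (29.8). The change within 1 age has no replicate.

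Sfrp2 was lowest at 3D cold at both ages in Icam1+ preadipocytes and Cd142+ fibroblasts, and in young Dpp4+ fibroblasts, while aged Dpp4+ fibroblasts were at 319 at TN and 329 at 3D cold. Its log2 fold changes over TN were -0.75 and 0.01 in Cd142+ fibroblasts (adjusted p = 0.000696), -0.63 and 0.23 in Icam1+ preadipocytes (adjusted p = 0.0198) and -0.13 and 0.29 in Dpp4+ fibroblasts (adjusted p = 0.0496). The Icam1+ value at 3D was -0.35 without young TN and passed. With cells assigned 1 by 1 the Icam1+ and Cd142+ calls were lost (adjusted p = 0.0891 and 0.153). The Dpp4+ call was lost without young 3D cold (0.30 at 14D, adjusted p = 0.119), young 14D cold (0.32, adjusted p = 0.112), aged TN (0.16, adjusted p = 0.0618) or aged 14D cold (0.26, adjusted p = 0.166) and at a resolution of 1.0 (adjusted p = 0.0598), and the value at 14D was 0.44 without young TN (adjusted p = 0.029).

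Sfrp1 fell in the cold in Icam1+ preadipocytes, by log2 fold changes of -0.76 at 3D and -0.59 at 14D (adjusted p = 0.00448), and both cold levels were below TN at each age. In Cd142+ fibroblasts the values were -0.44 and -0.46 (adjusted p = 0.0429). That call was lost without aged TN (adjusted p = 0.202), aged 3D cold (adjusted p = 0.0808) or aged 14D cold (adjusted p = 0.0573), and the value at 14D was -0.70 without young 14D cold (adjusted p = 0.00324). It was also lost with DESeq2 (adjusted p = 0.206), at a resolution of 1.0 (adjusted p = 0.163), with cells assigned 1 by 1 (adjusted p = 0.428) and with doublets removed (adjusted p = 0.0616). Wnt5a was lower at 3D cold than at TN in each age and population, but its temperature test did not pass in Dpp4+ (adjusted p = 0.0535) or Icam1+ cells (adjusted p = 0.0526).

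**Figure D4:**
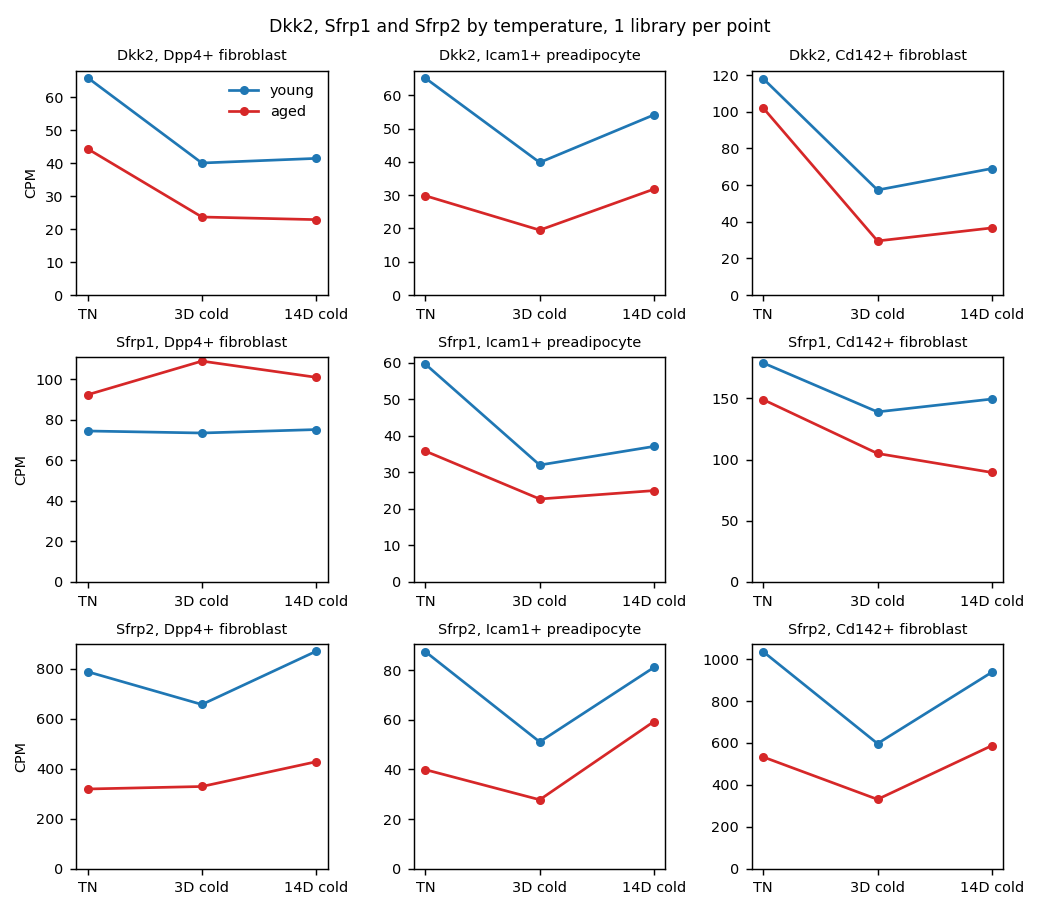
Level of Dkk2, Sfrp1 and Sfrp2 at TN, 3D cold and 14D cold in the 3 ASPC populations, in CPM, with 1 library per point (blue young, red aged). Dkk2 in Cd142+ fibroblasts went from 118 and 102 at TN to 57.3 and 29.5 at 3D cold in young and aged mice.

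The other listed genes of the pathway moved in both directions with age. From 7 lists of ligands, processing factors, receptors, R-spondins, inhibitors, intracellular mediators and targets, 92 genes were in the count tables. In Dpp4+ fibroblasts 64 of them were tested, 8 rose and 10 fell, with a median log2 fold change of 0.02, where 8.84% of all genes rose and 8.78% fell. In Icam1+ preadipocytes 12 rose and 8 fell of 61 (median 0.12), against 7.77% and 6.58% of all genes. In Cd142+ fibroblasts 8 rose and 6 fell of 60 (median 0.07), against 6.37% and 6.11%.

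Among the receptors, Fzd4 fell in all 3 populations, by log2 fold changes of -0.71 ± 0.06 (adjusted p = 8.26e-05) in Dpp4+, -0.45 ± 0.08 (adjusted p = 0.00560) in Icam1+ and -0.61 ± 0.11 (adjusted p = 0.00110) in Cd142+ cells. Fzd8 rose in Dpp4+ (0.41 ± 0.07) and Fzd1 in Icam1+ cells (0.57 ± 0.06), and Fzd2 fell in Cd142+ cells (-0.43 ± 0.11). Receptors counted 1 rise and 2 falls of 13 tested in Dpp4+, 3 and 4 of 13 in Icam1+, and 1 and 4 of 12 in Cd142+ cells, where 17.6%, 14.4% and 12.5% of all genes passed in either direction. Tpbg, a membrane protein that inhibits canonical signalling, rose in Dpp4+ (0.51 ± 0.08, adjusted p = 0.00176) and Icam1+ cells (0.81 ± 0.09, adjusted p = 0.000686).

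Of the other reported beta-catenin targets, the growth factor gene Fgf18 fell in Dpp4+ (-0.85 ± 0.09, adjusted p = 0.000222) and Cd142+ fibroblasts (-0.70 ± 0.14, adjusted p = 0.00401). Cd44, a hyaluronan receptor, rose in Dpp4+ fibroblasts (0.42 ± 0.07) and the transcription factor gene Myc in Cd142+ fibroblasts (0.60 ± 0.08). Wisp2 fell in Dpp4+ (-0.38 ± 0.09, adjusted p = 0.0174) and rose in Icam1+ cells (0.72 ± 0.16, adjusted p = 0.0156), a difference between populations that was not examined here. The intracellular mediators Tle4 (0.45 ± 0.13) and Csnk1e (0.38 ± 0.10) rose in Cd142+ fibroblasts. As a list, these targets had 2 rises and 2 falls of 7 tested in Dpp4+, 1 and 2 of 6 in Icam1+ and 1 and 2 of 7 in Cd142+ cells, beside the same 17.6%, 14.4% and 12.5% of all genes. In endothelial-like cells 1 of the 49 listed genes tested rose and 1 fell, and in smooth muscle or pericyte-like cells none of 50 passed.

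The genes with the most similar profiles were ranked by Pearson's r of log2(CPM + 1) over the 18 sums of 3 ASPC populations and 6 libraries, which share libraries and the differences between populations. Wnt2 was most like Gap43 (r = 0.990), Kdelc2 (0.988) and Hpse (0.987), and Dact2 most like the Dpp4+ marker Cd55 (0.990) and Itgb7 (0.987). Sfrp4 was most like Gda (0.991), Plac8 (0.984) and Il33 (0.981), Sfrp2 most like Man2a1 (0.991), Olfml2b (0.979) and Ly6a (0.969), and Sfrp1 most like Maob (0.970), Fam107a (0.939) and Pygb (0.922). For Wnt5a the values were 0.924 with Slc41a3, 0.922 with Trip4 and 0.918 with Agtrap, and for Dkk2 0.910 with Lpar4, 0.904 with Zbtb8os and 0.887 with Mrps21. These are descriptions over 6094 genes, with no test.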

How the data were processed

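The authors sequenced stromal vascular cells of iWAT in 6 droplet libraries and deposited raw counts, the UMIs of each gene in each barcode called as a cell, made with Cell Ranger against mm10 per the submitters' processing notes, which also name Seurat and R 4.1.1. Nothing in these counts is normalized, and 3′ counts do not allow levels of different genes to be compared.

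Barcodes with more than 200 genes and within 3 median absolute deviations of their library's median in log10 UMIs, log10 genes and (upper side) mitochondrial percentage were kept. Counts were scaled to 10000 per cell, and 6000 variable genes, without the Wnt genes and markers, scaled within each library, gave 15 principal components, 20 neighbours and Leiden clusters at a resolution of 0.5 (Python 3.11.15, numpy 2.4.6, scipy 1.17.1, scikit-learn 1.9.0, leidenalg 0.10.2). Detection of a marker required 10% of a cluster's cells and 1.5 times its level in other cells, and a name needed 3 markers and 50% of its list. Doublets (9.12% of cells scored as such at 0.8% per 1000 barcodes) were left in the reported values, except that clusters made mostly of them got no name.

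Counts were summed per library and population, since cells are not replicates, and tested with edgeR 4.0.16 (R 4.3.3; quasi-likelihood F test, TMM factors, filterByExpr, Benjamini-Hochberg adjustment, threshold 0.05), age with temperature as a term and temperature with age as a term (2 residual degrees of freedom). Age by population was tested over 2 populations at a time with library as a block (4 residual degrees of freedom). SE was derived as the absolute log2 fold change over the root of F. The test was also run on counts simulated from its own kind of model without a temperature effect, which cannot show how it behaves on these libraries. Alternatives were DESeq2 1.42.0, RLE factors, no filter, no temperature or age term, each library left out, cells thinned to 2000 UMIs, resolution 1.0, cell-by-cell assignment from markers, doublets removed and single clusters. Those for the age by population test were chosen after seeing the data. In the age fit, leaving out either library of a temperature removes the same aged and young pair, so those results come as near repeats. Intervals of cell shares are exact binomial (95%) and cover only counting error.

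The genes and lists were chosen with earlier results of these data known. From the other listed Wnt genes, the text names in each ASPC population up to 3 rises and 3 falls with age, the largest among genes that passed at a mean of at least 20 CPM (here with TMM factors), and for each of the 10 genes at that level the 3 genes with the highest correlation, of which 1 for Dact2 is not reported here. Positions are from GENCODE vM21 and promoters from RefSeq, both of GRCm38.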

Additional observations from a re-analysis of the deposited data

Results flagged for a closer look

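The age effect on 3 of the genes differed between ASPC populations by an interaction test with library as a block. For Sfrp1 the effect in Cd142+ fibroblasts was lower than in Dpp4+ fibroblasts by -0.84 on the log2 scale (adjusted p = 0.00525 by edgeR's quasi-likelihood test), and this passed in all 9 alternatives, with values of -1.09 to -0.71 and adjusted p up to 0.0479. All 3 aged libraries were higher for Sfrp1 in Dpp4+ fibroblasts, and each aged Cd142+ library was lower than the young library of its temperature. For Wnt2 the same difference was -0.74 (adjusted p = 0.00536). It passed in 6 of 9 alternatives, with values of -0.85 to -0.34, and was lost without aged 3D cold, with cells assigned 1 by 1 and with cells thinned to 2000 UMIs. For Sfrp4 the age effect in Cd142+ fibroblasts was above that in Icam1+ preadipocytes by 1.39 (adjusted p = 0.0373). It passed in 2 of 9 alternatives, with values of 0.70 to 1.82, and was lost without young TN, young 14D cold, aged TN (0.85) or aged 3D cold, with cells assigned 1 by 1 (0.70), with doublets removed (0.85) and with cells thinned (adjusted p = 0.0636).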

How the results depend on the processing

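Of the values for single genes and age, 483 kept their direction and their side of the threshold, 46 no longer passed, 17 newly passed and 20 changed sign. For temperature 270, 22, 38 and 8 did so, and for age by population 186, 10, 5 and 18. The Icam1+ and Cd142+ populations were each 1 cluster. Their single-cluster fits for age therefore repeat the reported fit and are counted among the 483. No value with a changed sign passed the threshold, and 1 of the genes called, Dact2 in Dpp4+ fibroblasts, changed sign (-0.21 in cluster 8 alone). Wnt5a, Sfrp1, Sfrp2 and Sfrp4 in Dpp4+ fibroblasts and Wnt5a in Icam1+ preadipocytes passed in all 14 alternatives on the whole population, with adjusted p up to 0.0443, and Dkk2 in each ASPC population in 13. Through its temperature term the age fit sets each aged library against the young library of its own temperature, with no replicate of any pair. The 14 alternatives therefore count the loss of each pair 2 times. The depth of aged 14D cold, the number of libraries and the unnamed cluster limit what can be detected, and the cause of the shifts was not tested.

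For age, the Dpp4+ count of 2362 genes was 1365 with DESeq2, 755 without the temperature term, 1529 with cells thinned and 1297 to 1704 with 1 library left out (1496 young 14D cold, 1297 aged 14D cold). In cluster 8 alone 1 of the Wnt genes passed, where 73 of all 8085 genes tested did. The Icam1+ count of 1908 was 984 with DESeq2, 295 without the temperature term and 978 thinned, and the Wnt genes that passed went from 5 to 1 without the temperature term and 3 by cell-by-cell assignment. The Cd142+ count of 1413 was 451 with DESeq2, 422 without the temperature term, 935 by cell-by-cell assignment, 695 thinned and 753 to 1528 with 1 library left out (886 young 14D cold, 802 aged 3D cold, 753 aged 14D cold), and 1 Wnt gene passed without the temperature term. The endothelial count of 293 was 120 with DESeq2, 885 with no filter, 153 without the temperature term, 0 by cell-by-cell assignment, 161 with doublets removed and 119 thinned. Its 2 Wnt genes became 1 with DESeq2, at resolution 1.0 and thinned, and 0 by cell-by-cell assignment and with doublets removed. With 1 library left out 0 to 2 passed (0 without young TN, 1 without young 3D cold, young 14D cold, aged TN or aged 3D cold). The smooth muscle or pericyte count of 75 was 40 with DESeq2, 397 with no filter, 0 without the temperature term, 8 by cell-by-cell assignment, 38 with doublets removed and 19 thinned. Leaving out 1 library gave 12 to 331 (322 without young TN, 165 young 3D cold, 12 young 14D cold, 331 aged TN, 149 aged 3D cold, 22 aged 14D cold). Its Wnt genes went from 0 to 4 with no filter and 0 to 3 with 1 library left out (1 without either TN library, 3 without either 3D cold library).

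For temperature, counts of 778, 809 and 352 genes in Dpp4+, Icam1+ and Cd142+ cells were 2368, 2221 and 801 with no filter, 0, 0 and 1 without the age term, and 1183, 345 and 121 by cell-by-cell assignment. The Cd142+ count was also 148 with DESeq2 and 196 thinned. With 1 library left out they ran from 401 to 664 in Dpp4+ (440 without young TN, 401 without aged TN), 910 to 2023 in Icam1+ (2023 without young TN, 1488 young 14D cold, 1330 aged TN, 1731 aged 14D cold) and 244 to 761 in Cd142+ cells (715 without young TN, 761 without aged TN). The Wnt genes that passed were 0 in each population without the age term. In Dpp4+ cells they went from 2 to 6 with no filter, 1 at resolution 1.0, 4 by cell-by-cell assignment, 5 with doublets removed and 1 to 3 with 1 library left out (1 without aged TN or aged 14D cold). In Icam1+ cells they went from 3 to 7 with no filter and 4 to 6 with 1 library left out (6 without young TN, 5 without young 3D cold, aged TN, aged 3D cold or aged 14D cold). In Cd142+ cells 1 passed by cell-by-cell assignment and 2 to 4 with 1 library left out.

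For age by population, counts of 343, 264 and 262 genes (Icam1+ minus Dpp4+, Cd142+ minus Dpp4+, Cd142+ minus Icam1+) were 206, 157 and 92 by cell-by-cell assignment and 157, 132 and 136 thinned. With 1 library left out they ran from 110 to 289 (212 without young TN, 110 young 14D cold, 164 aged 3D cold, 189 aged 14D cold), 159 to 280 (159 young 14D cold, 160 aged 3D cold, 173 aged 14D cold) and 81 to 253 (174 young 3D cold, 81 young 14D cold, 152 aged TN, 115 aged 3D cold). The Wnt genes that passed for Icam1+ minus Dpp4+ went from 0 to 1 with doublets removed and thinned, and 0 to 1 with 1 library left out (1 without young 3D cold, aged TN or aged 14D cold). For Cd142+ minus Dpp4+ they went from 2 to 1 by cell-by-cell assignment, thinned and without aged 3D cold (1 to 2 over libraries). For Cd142+ minus Icam1+ they went from 1 to 0 by cell-by-cell assignment, with doublets removed, thinned and without young TN, young 14D cold, aged TN or aged 3D cold (0 to 1 over libraries).

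The other changes of sign were in values that had not passed. For age they were Wnt2 (0.13) and Axin2 (0.05) in Dpp4+ cluster 8 alone, Sfrp5 in Dpp4+ cells at resolution 1.0 (0.03), Axin2 in Dpp4+ (0.11) and Dact2 in Icam1+ cells (0.35) thinned, and Axin2 in endothelial (-0.01) and smooth muscle or pericyte-like cells (-0.35) by cell-by-cell assignment. With 1 library left out, age values ran from -3.98 to 0.48 for Sfrp5 in Dpp4+, -0.48 to 1.57 for Dact2 and -0.50 to 0.24 for Axin2 in Cd142+, and -0.98 to 0.05 for Wnt2, -0.87 to 0.37 for Sfrp1 and -0.75 to 0.91 for Dact2 in smooth muscle or pericyte-like cells. Temperature values ran from -0.04 to 0.22 for Sfrp1, -0.21 to 0.00 for Sfrp4 and -6.43 to 0.94 for Sfrp5 in Dpp4+, and -0.29 to 0.06 for Sfrp4, -1.79 to 0.81 for Dact2 and -0.56 to 0.38 for Axin2 in Cd142+ cells, where cell-by-cell assignment gave 0.08 for Sfrp4 and 0.14 for Dact2. Differences of the age effect ran from -0.50 to 0.04 for Dkk2 (Icam1+ minus Dpp4+), -0.33 to 1.01 for Dact2, -0.16 to 0.35 for Dkk2 and -0.31 to 0.49 for Axin2 (Cd142+ minus Dpp4+), and -0.11 to 0.13 for Sfrp2 and -0.18 to 0.73 for Dkk2 (Cd142+ minus Icam1+). By cell-by-cell assignment they were -0.55 for Dkk2 and -0.32 for Axin2 (Cd142+ minus Dpp4+), and -0.27 for Sfrp2, -0.20 for Dkk2 and -0.07 for Axin2 (Cd142+ minus Icam1+). In that last comparison Sfrp2 was -0.14 with doublets removed and -0.08 thinned, and Wnt2 was 0.01 thinned.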
